A study of Saccharomyces cerevisiae with 12 samples.

Results

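The genes for the proteins of the small (40S) subunit of the cytosolic ribosome of Saccharomyces cerevisiae were followed in strains with a temperature-sensitive subunit of the proteasome core or of its lid, and in WT cells. A gene was taken as a member when its R64 standard name was RPS followed by a number, with no suffix or with A or B. This gave 56 of the 5585 protein-coding genes matched to the deposited table. Of these, 48 formed 24 pairs of paralogs named A and B, and 8 had no paralog (among them RPS2, RPS3, RPS12, RPS13, RPS15, RPS20 and RPS31).

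Each 40S subunit carries a single copy of each of its proteins around the 18S rRNA, selects the start codon and decodes the mRNA. Most yeast ribosomal protein genes exist as a pair left from the ancestral duplication of the genome, and either copy can supply the protein. Growing cells transcribe them among the most active genes under Rap1, Fhl1, Ifh1 and Sfp1, with TORC1 and protein kinase A upstream, and ribosomal proteins made in excess are degraded by the proteasome.

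The 3 groups were WT, pup2-ts and rpn5-ts, with 4 libraries each that the series describes as biological replicates. PUP2 encodes an alpha-ring subunit of the 20S core particle, and RPN5 encodes a subunit of the lid of the 19S regulatory particle. The names of WT replicates 3 and 4 hold By4741, a common laboratory strain. All strains were MATa his3Δ1 leu2Δ0 met15Δ0 ura3Δ0 by their labels. Both mutants carried in addition lys2Δ0 and the can1Δ::LEU2-MFA1pr::His3 marker, with either pup2-ts::URA3 or rpn5-ts::URA3. WT lacked these alleles, so the temperature-sensitive allele and the marker alleles cannot be told apart in a comparison with WT. Cells grew in YPD to an optical density of about 0.5 with no treatment, and the growth temperature was not given in the sources used here. Polyadenylated RNA from hot acid phenol extracts was sequenced after DNAse treatment with the KAPA mRNA HyperPrep kit. In every group the word DNAse stands in the names of replicates 3 and 4 and not in those of replicates 1 and 2, although the protocol gives DNAse for all, so values are also given within replicates 1 and 2 and within replicates 3 and 4.

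The libraries held 18501508 to 60599134 counts in protein-coding genes. URA3, the marker of both mutant alleles, stood at 3.63 to 4.66 CPM (counts per 1e+06 gene counts, after TMM scaling for library composition) in WT and at 81.8 to 124.6 CPM in the mutant libraries. LYS2 stood at 212.6 CPM in the library labelled rpn5-ts replicate 1, against 0 to 0.209 CPM in the other 7 mutant libraries, and MET17 (MET15) stood at 249.4 CPM there. That library goes against its labelled genotype, so results are also given without it. MET17 stood at 195.7 to 586.6 CPM in the 4 pup2-ts libraries, against their met15Δ0 label, and at 0 to 0.0931 CPM in WT. The pup2-ts and WT groups thus also differ in MET17, which cannot be told apart from the pup2-ts allele in this comparison. Expression of MET17 in the pup2-ts libraries cannot be told apart from the alleles in the comparison between the mutants either. The pheromone genes MF(ALPHA)1 and MF(ALPHA)2 of the other mating type stayed at or under 2.70 CPM in all 12 libraries, while STE2, the pheromone receptor of a cells, stood at 237.6 to 692.1 CPM. Replicates 3 and 4 lay far closer to each other than to replicates 1 and 2 of their group, with a chi-square per degree of freedom of 7.30 to 31.5 against 300.1 to 746.5. PUP2 stood at 178.8 to 218.1 CPM in WT and 219.9 to 264.2 CPM in pup2-ts, and RPN5 at 276.6 to 448.2 CPM in WT and 399.8 to 732.5 CPM in rpn5-ts, which do not check the labels, since a temperature-sensitive allele is still transcribed.

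In WT, most genes without a paralog were among the highest RPS genes, and a few lesser copies of pairs were far below all others. Levels between genes are given as CPM per kilobase of the listed interval. RPS31, which encodes ubiquitin fused to the small subunit protein Rps31, was highest at 8677 ± 1600 CPM per kb (SD, n = 4). It was followed by RPS20 at 5424 ± 812, RPS2 at 5060 ± 1094 and RPS12 at 4729 ± 1051 CPM per kb, whose SDs overlap. Of the 8 genes without a paralog, 7 were among the 9 highest, with RPS3 at 3752 ± 782 and RPS15 at 3355 ± 480 CPM per kb. RPS13, which encodes a protein at the subunit interface, was rank 19 at 1670 ± 272 CPM per kb, but its listed interval holds an intron, without whose bases it reached 3258 CPM per kb. Leaving intron bases out for all genes put RPS9B at rank 8, RPS3 at 9, RPS14A at 10, RPS15 at 11 and RPS13 at 13. The 3 lowest genes were each the lesser copy of a pair, namely RPS14B at 163 ± 25.3, RPS22B at 162 ± 17.8 and RPS9A at 146 ± 37.2 CPM per kb. These 3 did not differ beyond their spread.

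**Figure D1:**
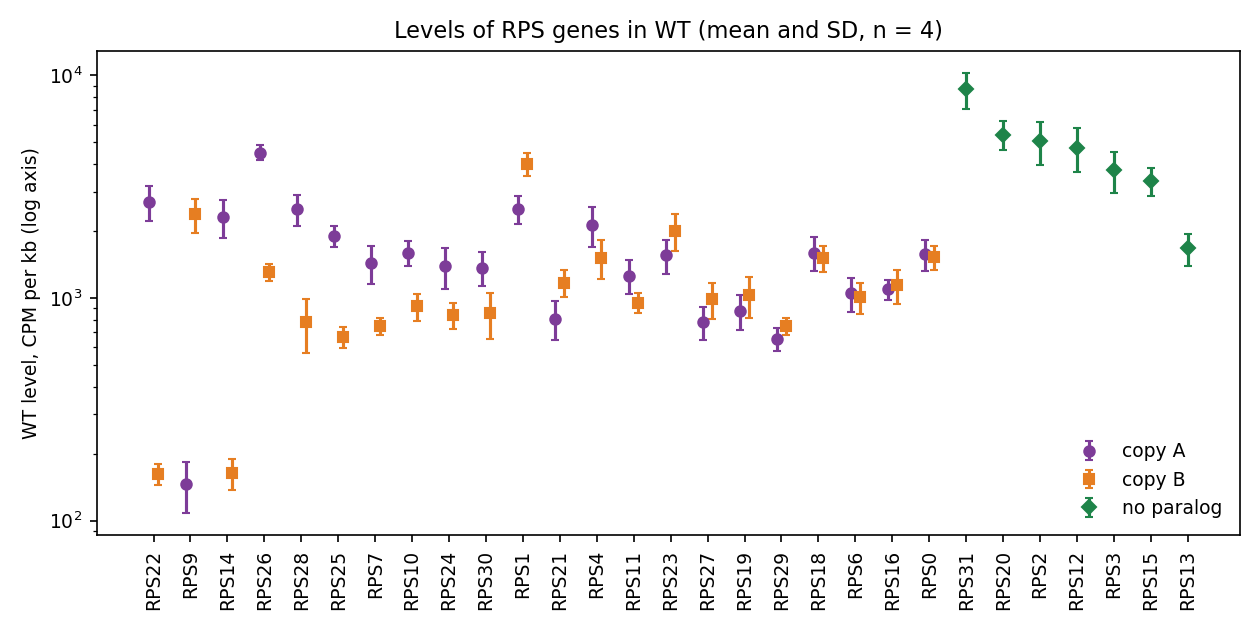
Levels of RPS genes in WT as CPM per kilobase of the listed interval, on a log axis. Points are means and bars SDs of 4 libraries, with A copies as circles, B copies as squares and genes without a paralog as diamonds. Pairs are ordered from the most unequal (RPS22, RPS9 and RPS14) to the most equal (RPS0).

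The copies of a pair were unequal to very different degrees. RPS22A stood 16.7-fold above RPS22B, RPS9B 16.3-fold above RPS9A and RPS14A 14.2-fold above RPS14B in mean WT level per kb. The next most unequal pair, RPS26, differed by 3.45-fold. The most equal pairs were RPS0 (1.03-fold), RPS16 (1.04-fold) and RPS6 (1.04-fold). Copy A was above copy B per kb in all 12 libraries in 14 pairs, and B above A in all 12 in 7 pairs. Introns make these levels uncertain, since 36 of the 56 genes have one. With the bases of annotated introns left out of the length, RPS22 differed by 11.4-fold, RPS9 by 16.0-fold and RPS14 by 12.6-fold, and the higher copy changed in 1 pair, RPS16. In RPS22B this removed 1 intron of 483 bases within the coding region. Its interval is listed from base 855831 and its coding sequence begins at 856442. Any further intron before the coding sequence was not removed. Reads that fit both copies add a further limit, because how the authors' counting treated them is not given in the sources used here. The share of 50-base windows of a gene found elsewhere in the genome had a median of 0.378%, exceeded 10% in 8 genes (both copies of RPS4, RPS6 and RPS24 among them) and reached 62.7% at most. On the same strand, other features of the deposited table overlap 14 of the 56 genes, RPS9A, RPS14A, RPS14B and RPS22B among them. RPS9B and RPS22A have no such overlap, and the effect of overlaps on these levels and folds was not tested.

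No RPS gene was called different between either mutant and WT when all 12 libraries were fitted together, although most of them stood somewhat lower in the mutants. In pup2-ts, 0 of 56 passed an adjusted p of 0.05 in edgeR's quasi-likelihood test with Benjamini-Hochberg adjustment over 5560 genes, where 15.4% of all genes did (6.65% lower). In rpn5-ts, 0 of 56 passed, where 13.7% of all genes did (5.4% lower). At an unadjusted p under 0.05 there were 2 in pup2-ts (RPS15 and RPS22B) and 2 in rpn5-ts (RPS26B and RPS9B). DESeq2 called 1 in each comparison, RPS15 in pup2-ts (log2 fold change -0.35, adjusted p = 0.0480) and RPS26B in rpn5-ts (-0.34, adjusted p = 0.0419), where it called 22.1% and 20.5% of all genes, and limma-voom called 0. The median log2 fold change of the 56 genes was -0.16 in pup2-ts and -0.24 in rpn5-ts, beside -0.02 in each over all genes tested. It was below 0 for 49 members in pup2-ts and for 53 in rpn5-ts, beside 53.2% and 52.7% of all genes. Both comparisons share the WT libraries. In bulk RNA, fewer cells that express a gene and less RNA per cell cannot be told apart.

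The RPS genes as a family stood below WT in replicates 3 and 4 of the mutants and near WT in replicates 1 and 2. RPS genes took 8.35%, 10.5%, 8.14% and 8.36% of the gene counts in WT replicates 1 to 4. They took 8.84%, 9.53%, 6.09% and 6.43% in pup2-ts and 9.41%, 8.403%, 6.23% and 6.08% in rpn5-ts. In each mutant replicates 3 and 4 lay below every WT library, and replicates 1 and 2 lay within the WT range. The group means were 8.83% ± 1.10 in WT libraries, 7.72% ± 1.72 in pup2-ts and 7.53% ± 1.64 in rpn5-ts (SD, n = 4).

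**Figure D2:**
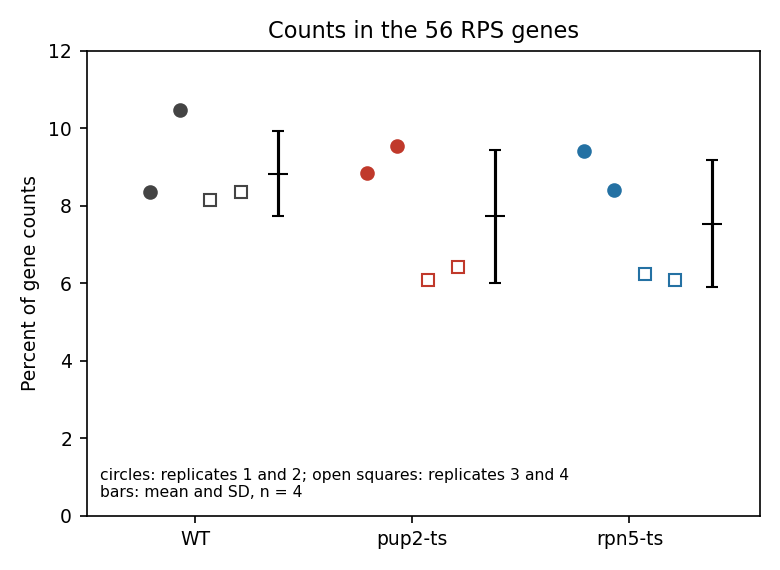
Percent of all gene counts that fell in the 56 RPS genes, 1 point per library, with filled circles for replicates 1 and 2, open squares for replicates 3 and 4, and black bars for the mean and SD of 4 libraries. Replicates 3 and 4 of both mutants sit between 6.08% and 6.43%, below all WT libraries, while replicates 1 and 2 of the mutants sit between 8.403% and 9.53%.

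Within replicates 1 and 2 alone, the median log2 fold change of the RPS genes was 0.10 in pup2-ts and 0.02 in rpn5-ts. edgeR called 0 of 56 in each, with 0 at an unadjusted p under 0.05, where 10.7% and 12.5% of all genes were called. Within replicates 3 and 4 alone, the medians were -0.42 and -0.48, beside -0.01 and 0.01 over all genes. There, 53 members were lower and 3 higher in pup2-ts, where 65.7% of all genes were called (33.7% lower and 32% higher). The 3 that rose were RPS9A (log2 fold change 0.62), RPS22B (0.58) and RPS14B (0.27). In rpn5-ts, 52 members were lower and 2 higher, where 63.6% of all genes were called (30.7% lower and 32.8% higher). The 2 that rose were RPS22B (0.32) and RPS14B (0.18), and the 2 not called were RPS28B (-0.10) and RPS9A (0.03). Of the members called here, 42 of 56 in pup2-ts and 27 of 54 in rpn5-ts had the other sign in replicates 1 and 2. The members that rose were thus the lesser copies of the 3 most unequal pairs. With 2 closely matching libraries a group, these calls measure the spread between those libraries.

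**Figure D3:**
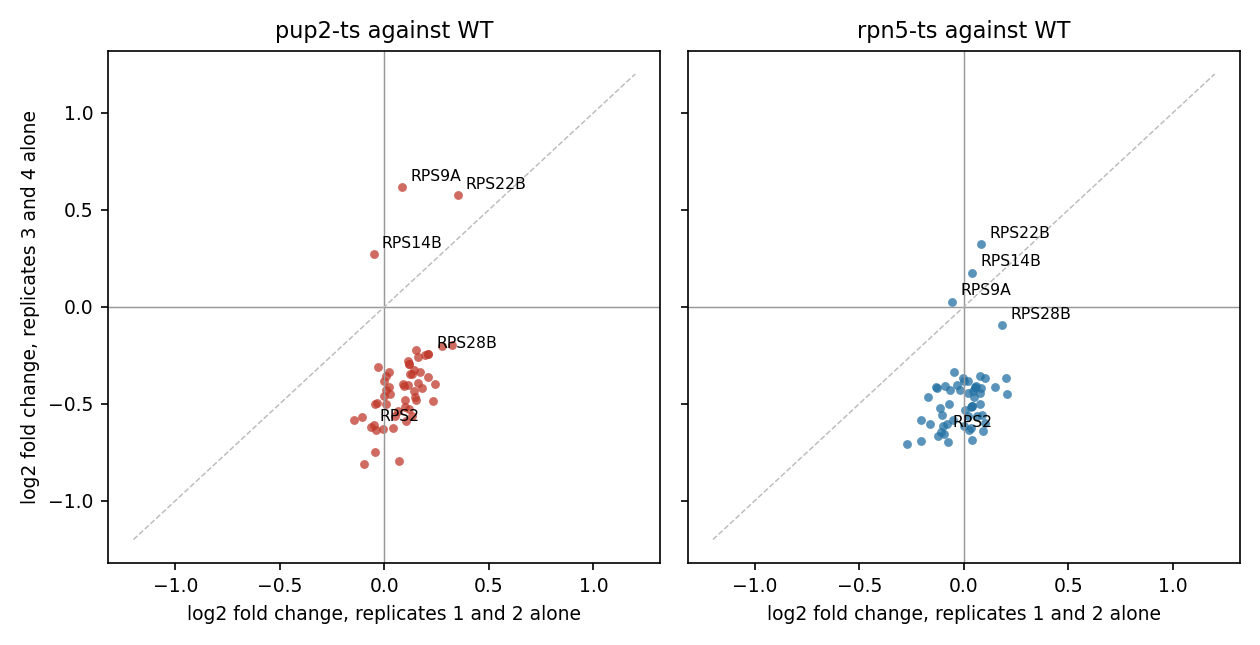
Log2 fold change of each of the 56 RPS genes against WT in replicates 1 and 2 alone (horizontal axis) and in replicates 3 and 4 alone (vertical axis), for pup2-ts (left) and rpn5-ts (right), with the diagonal dashed. Most genes lie near 0 on the horizontal axis and near the medians of -0.42 and -0.48 on the vertical axis, and RPS22B, RPS14B and RPS9A lie above the rest.

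The difference between the replicate sets was itself tested as an interaction. The median interaction of the RPS genes was -0.50 (log2) for pup2-ts and -0.47 for rpn5-ts. edgeR called 0 of 56 for pup2-ts, where 9.41% of all genes were called, and 0 for rpn5-ts, where 1.67% were. At an unadjusted p under 0.05 there were 17 and 9 members, and DESeq2 called 9 for pup2-ts, all lower (RPS0A, RPS10A, RPS10B, RPS11B, RPS21A, RPS25B, RPS28A and RPS29A among them), where it called 15.5% of all genes, and 0 for rpn5-ts, where it called 6.83%. The 9 are 9 of 56 members, near the share over all genes. Without the library labelled rpn5-ts replicate 1, edgeR called RPS11B for pup2-ts (-0.58, adjusted p = 0.0447). With a single difference between the replicate sets fitted to all groups, 28 RPS genes were lower in replicates 3 and 4 and 1, RPS14B, was higher. edgeR called 63.1% of all genes there (34% lower and 29.2% higher). That fit does not show the difference in each group. The RPS share of gene counts averaged 9.41% in replicates 1 and 2 and 8.25% in replicates 3 and 4 of WT. These means were 9.19% and 6.26% in pup2-ts and 8.91% and 6.16% in rpn5-ts.

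Fits that account for the replicate called a few members in the comparisons with WT. Replicate numbers were taken to pair the libraries across groups. Only 6 of 12 libraries lay closest to their own number, and pairing by number within a replicate set was not shown. With the replicate block, edgeR called 0 RPS genes in pup2-ts (38.5% of all genes), with RPS22B nearest at 0.46 (adjusted p = 0.0518). It called 3 in rpn5-ts (40.6%, with 19.9% lower), all of them lower: RPS20 (log2 fold change -0.51, adjusted p = 0.0432), RPS27A (-0.40, 0.0344) and RPS25B (-0.42, 0.0439). Without the library labelled rpn5-ts replicate 1, the block called 22 members in rpn5-ts, all lower (41.5% of all genes, with 20.2% lower), and 2 in pup2-ts, RPS22B and RPS9A, both higher (41.3%). The median log2 fold change in rpn5-ts was then -0.41, against -0.26 with that library. With the replicate set as a covariate instead, edgeR called RPS22B (0.45) and RPS9A (0.35) higher and RPS29A (-0.46) lower in pup2-ts, where 42.6% of all genes were called, and 7 members lower in rpn5-ts, where 44.5% were. They included RPS10B, RPS20, RPS25B, RPS26B, RPS27A and RPS29A. Leaving out the library labelled rpn5-ts replicate 1 made these counts 6 in pup2-ts (45.3% of all genes) and 21 in rpn5-ts (46.1%). With neither block nor covariate, leaving it out gave 0 in pup2-ts (15.7%) and 1 in rpn5-ts (16.9%), RPS26B (-0.44, adjusted p = 0.0346).

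Among the 8 genes without a paralog, the log2 fold change was below 0 for all 8 in both comparisons, and none passed the test with all libraries. RPS20 encodes Rps20, a head protein that the ligase Hel2 ubiquitinates on stalled ribosomes. It stood at 3563, 4576, 3426 and 3404 CPM in WT, at 3558, 3782, 2233 and 2304 CPM in pup2-ts and at 3865, 2773, 2089 and 2068 CPM in rpn5-ts. The groups overlapped through replicates 1 and 2 of pup2-ts and replicate 1 of rpn5-ts, and the other mutant libraries were lower than all WT libraries. Its log2 fold change was -0.33 ± 0.25 (SE, adjusted p = 0.425, edgeR) in pup2-ts and -0.47 ± 0.25 (adjusted p = 0.238) in rpn5-ts, the lowest of the 56 there.

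RPS31 stood at 4149, 6204, 4686 and 4537 CPM in WT, at 4735, 5264, 3075 and 3400 CPM in pup2-ts and at 5290, 4218, 3044 and 2937 CPM in rpn5-ts. Replicates 3 and 4 of both mutants were below all WT libraries and the groups overlapped. The log2 fold change was -0.25 (adjusted p = 0.561, edgeR) and -0.34 (adjusted p = 0.392). RPS2, whose product lies at the mRNA entry, stood at 3255, 5245, 5418 and 5331 CPM in WT. It stood at 3953, 4148, 3413 and 3534 CPM in pup2-ts and at 4531, 3316, 3453 and 3331 CPM in rpn5-ts. WT replicate 1 was the lowest of the 12 libraries for RPS2, and the other 3 WT libraries were above all mutant libraries. Its log2 fold change was -0.36 (adjusted p = 0.241) in pup2-ts and -0.40 (adjusted p = 0.190) in rpn5-ts, and without WT replicate 1 edgeR called it in pup2-ts (-0.49, adjusted p = 0.0402).

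RPS15, whose product reaches toward the decoding site, had WT replicate 1 at 1613 CPM and the other WT libraries at 2040, 2202 and 2250 CPM. It stood at 1590, 1788, 1433 and 1550 CPM in pup2-ts, where the groups overlapped through WT replicate 1, with a log2 fold change of -0.35 (adjusted p = 0.127, edgeR). In rpn5-ts it stood at 1872, 1413, 1742 and 1581 CPM. The single genes RPS3, RPS12 and RPS13 had log2 fold changes of -0.10 to -0.22 in pup2-ts and of -0.24 to -0.31 in rpn5-ts. RPS3, whose product is ubiquitinated by Mag2 and Hel2 in ribosome quality control, was the least changed of the 8 in pup2-ts at -0.10 (adjusted p = 0.786).

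RPS22B was the only RPS gene whose pup2-ts libraries did not overlap WT in CPM, where 21.8% of all genes did not. In rpn5-ts no member was free of overlap, where 19.2% of all genes were. The RPS22B pre-mRNA holds the small nucleolar RNA SNR44 in an intron and is a known substrate of RNase III (Rnt1). It stood at 235, 249, 287 and 225 CPM in WT, at 302, 313, 366 and 391 CPM in pup2-ts and at 335, 171, 324 and 311 CPM in rpn5-ts. All pup2-ts libraries were above all WT libraries, while in rpn5-ts replicate 2 was below them and the other 3 above. The log2 fold change was 0.46 ± 0.19 (SE, adjusted p = 0.132, edgeR) in pup2-ts, the highest of the 56, and 0.20 ± 0.19 (adjusted p = 0.533) in rpn5-ts. The adjusted p in pup2-ts was 0.0428 with the replicate set as a covariate. Without rpn5-ts replicate 2, which belongs to neither compared group but enters the shared fit, it was 0.0337, with a log2 fold change of 0.45. Its listed interval, chrXII:855831-857371 on the plus strand, spans SNR44, and intron reads could not be separated from exon reads.

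At the other end in pup2-ts stood RPS29A, which encodes a zinc-binding head protein. It stood at 493, 619.7, 498 and 488 CPM in WT, at 482, 555, 224 and 335 CPM in pup2-ts and at 524, 427, 315 and 292 CPM in rpn5-ts. Replicates 3 and 4 of both mutants were lower than all WT libraries, and the groups overlapped through replicate 2 of pup2-ts and replicate 1 of rpn5-ts. The log2 fold change was -0.40 ± 0.27 (SE, adjusted p = 0.377, edgeR) in pup2-ts and -0.43 ± 0.27 (adjusted p = 0.315) in rpn5-ts.

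The balance between the copies of a pair was called changed in the same 4 of the 24 RPS pairs in both mutants, near the share of all pairs called. Both comparisons share the WT libraries. Among them, RPS1, RPS6 and RPS10 shifted toward copy A. The tests used limma on the log2 ratio of A to B counts in each library, adjusted over all 60 A/B pairs, of which 11.7% were called in pup2-ts and 13.3% in rpn5-ts. The 60 include the 24 RPS pairs themselves and 32 pairs of large subunit (RPL) genes, so the share over all pairs is mostly one of ribosomal protein genes. In each of the 4 pairs, the 4 mutant libraries did not overlap the 4 WT libraries in either comparison, and the exact two-sided permutation test gave p = 0.0286, the smallest it can give for 4 against 4. Of all 60 pairs, 18.3% did not overlap in pup2-ts and 16.7% in rpn5-ts, beside 4 of 24 RPS pairs in each. A ratio within a library needs no scaling between libraries, and the ratios of these 4 pairs kept their sign within replicates 1 and 2 and within replicates 3 and 4.

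RPS1A and RPS1B encode Rps1 (eS1), a protein of the platform next to the mRNA exit. The log2 ratio of RPS1A to RPS1B counts was -0.52, -0.44, -0.46 and -0.48 in WT libraries, -0.15, -0.17, -0.14 and -0.21 in pup2-ts and -0.25, -0.29, -0.32 and -0.24 in rpn5-ts. All mutant libraries were above all WT libraries, and all pup2-ts libraries were above all rpn5-ts libraries. As a share of the counts of the pair, RPS1A rose from 41.9% ± 0.63 (WT) to 47.1% ± 0.50 (pup2-ts) and 45.3% ± 0.62 (rpn5-ts) (SD, n = 4). The log2 ratio was higher by 0.31 ± 0.04 in pup2-ts (SE, adjusted p = 5.2e-04, limma) and by 0.20 ± 0.04 in rpn5-ts (adjusted p = 0.0116). The RPS1 difference stayed past the threshold in both comparisons without each of the 12 libraries in turn, with the library labelled rpn5-ts replicate 1 left out giving 0.19 (adjusted p = 0.0221) in rpn5-ts. With the 8 compared libraries alone it was past the threshold in pup2-ts (adjusted p = 0.0077) and not in rpn5-ts (adjusted p = 0.0590). Within replicates 1 and 2 it was higher by 0.32 (adjusted p = 0.0702) and 0.21 (adjusted p = 0.152), and within replicates 3 and 4 by 0.29 (adjusted p = 0.00175) and 0.19 (adjusted p = 0.0142).

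Neither copy of RPS1 was called by itself against WT when all 12 libraries were fitted together. RPS1A stood at 2128, 3010, 2519 and 2510 CPM in WT, at 3017, 3188, 2208 and 2133 CPM in pup2-ts and at 3075, 2363, 1905 and 1965 CPM in rpn5-ts. RPS1B stood at 3058, 4072, 3458 and 3494 CPM in WT, at 3340, 3582, 2440 and 2462 CPM in pup2-ts and at 3655, 2887, 2374 and 2321 CPM in rpn5-ts. Each copy overlapped between the groups, and the gap between them was smaller in every mutant library. Their log2 fold changes in pup2-ts were 0.05 (adjusted p = 0.901, edgeR) for RPS1A and -0.25 (adjusted p = 0.441) for RPS1B. Within replicates 3 and 4 alone both copies were called lower in both mutants. RPS1B was also called lower in rpn5-ts without the library labelled rpn5-ts replicate 1, with the block (-0.48, adjusted p = 0.0342, edgeR) and with the covariate (-0.44, adjusted p = 0.0275).

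**Figure D4:**
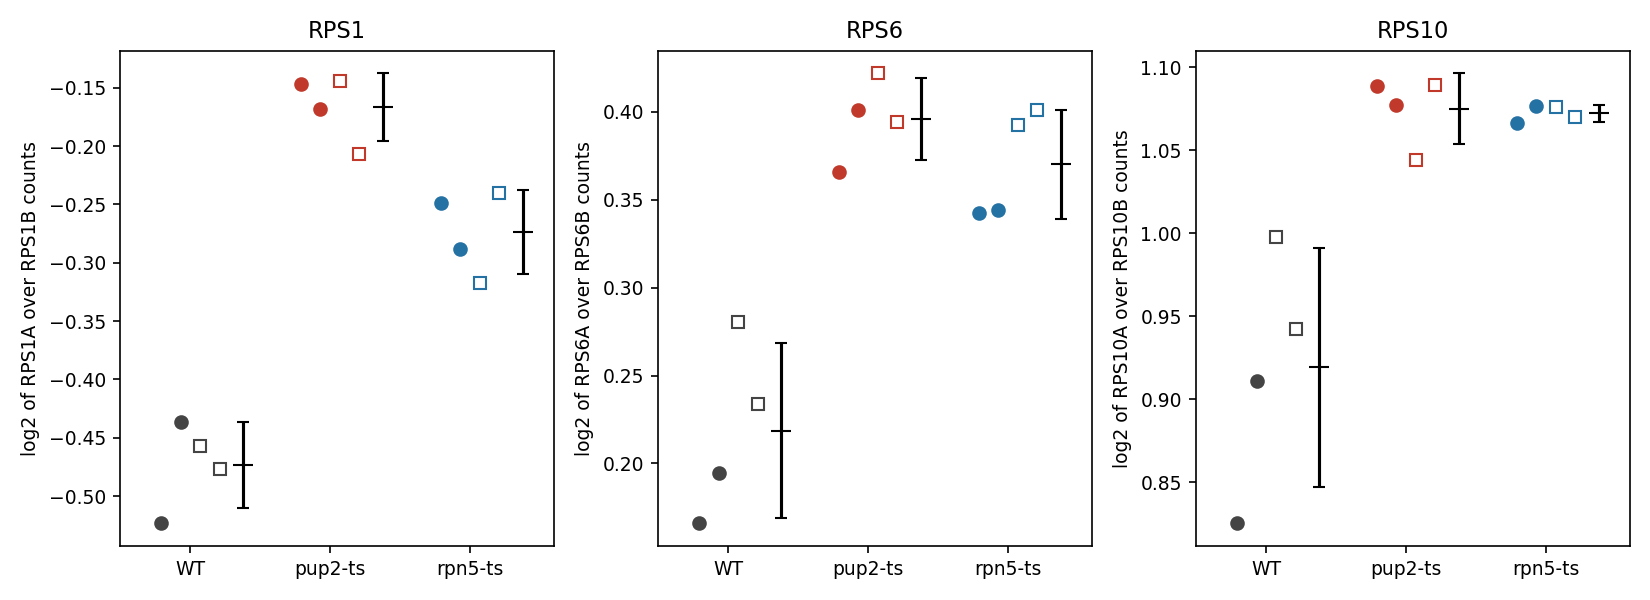
Log2 ratio of A to B counts for the RPS1, RPS6 and RPS10 pairs, 1 point per library, with filled circles for replicates 1 and 2, open squares for replicates 3 and 4, and black bars for the mean and SD of 4 libraries. In each panel all mutant libraries lie above all WT libraries.

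Sequence sets the limits of these ratios, since a read can be assigned to a copy only across positions at which the copies differ. The end of the coding sequence of each copy of RPS1 is shown for this reason. Sequences are from the R64 genome, 5′ to 3′ on the coding strand, and capitals mark the positions at which the copies differ, 3 in all. The RPS1A stretch is chrXII:1018141-1018200 (minus strand) and the RPS1B stretch chrXIII:147190-147249 (plus).
RPS1A coding end: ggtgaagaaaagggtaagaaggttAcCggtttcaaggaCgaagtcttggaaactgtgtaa
RPS1B coding end: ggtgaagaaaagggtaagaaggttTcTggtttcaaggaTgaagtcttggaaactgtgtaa
Over the whole coding sequence, the copies were 91.9% identical in RPS1 and 93.1% in RPS10. In RPS6 they were 99.2% identical, the highest of the 24 pairs, with the lowest, RPS27, at 84.3%. Of the 50-base windows, 2.59% of RPS1A, 3.005% of RPS1B and 0% of RPS10A and RPS10B lay elsewhere in the genome as well, against 36.9% of RPS6A and 41.5% of RPS6B. The RPS6 ratio is therefore uncertain where shared reads were split or dropped.

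The 300 bases before the listed 5′ end of each copy of RPS1 are shown next, since each copy is transcribed from a region of its own. They were searched on both strands for ACCCNNACA, the core of the site of Rap1, and capitals mark each match. The windows are chrXII:1018937-1019236 (minus strand, 1 match) for RPS1A and chrXIII:146156-146455 (plus, 0 matches) for RPS1B.
RPS1A upstream: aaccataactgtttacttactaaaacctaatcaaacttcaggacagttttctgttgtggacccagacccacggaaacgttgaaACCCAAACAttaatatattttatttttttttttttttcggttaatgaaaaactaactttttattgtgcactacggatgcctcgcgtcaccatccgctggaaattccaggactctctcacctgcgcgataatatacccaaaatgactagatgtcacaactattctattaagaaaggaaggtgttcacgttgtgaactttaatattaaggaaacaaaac
RPS1B upstream: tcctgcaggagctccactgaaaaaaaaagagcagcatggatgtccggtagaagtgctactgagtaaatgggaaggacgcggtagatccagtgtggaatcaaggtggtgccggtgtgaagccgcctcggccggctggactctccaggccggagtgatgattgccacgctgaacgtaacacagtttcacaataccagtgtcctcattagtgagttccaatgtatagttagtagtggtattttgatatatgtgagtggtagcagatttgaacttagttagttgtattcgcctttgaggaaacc
The letters were found in 10 of 56 RPS windows (17.9%), in 21 of 75 windows of large subunit (RPL) genes (28%) and in 3.796% of all 5585 windows. A match is a description of the letters in these windows.

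RPS6A and RPS6B encode Rps6, the protein phosphorylated downstream of TORC1. The log2 ratio was 0.17, 0.19, 0.28 and 0.23 in WT libraries, 0.37, 0.40, 0.42 and 0.39 in pup2-ts and 0.34, 0.34, 0.39 and 0.40 in rpn5-ts. It was higher by 0.18 ± 0.04 in pup2-ts (SE, adjusted p = 0.0138, limma) and by 0.15 ± 0.04 in rpn5-ts (adjusted p = 0.0293), and the second call was lost in 7 of 12 fits that each left out a library. RPS10A and RPS10B encode Rps10, a protein of the beak near the mRNA entry. Their log2 ratio was 0.83, 0.91, 0.998 and 0.94 in WT libraries, 1.09, 1.08, 1.04 and 1.09 in pup2-ts and 1.07, 1.08, 1.08 and 1.07 in rpn5-ts. All mutant libraries were above all WT libraries, narrowly so for WT replicate 3. The difference was 0.16 ± 0.04 in pup2-ts (adjusted p = 0.0366, limma) and 0.15 ± 0.04 in rpn5-ts (adjusted p = 0.0358). Either RPS10 call was lost in 10 of 12 fits that each left out a library, among them that of the library labelled rpn5-ts replicate 1 (0.0514 and 0.0572 as adjusted p).

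The replicate block raised the number of RPS pairs called in pup2-ts from 4 to 9, where 31.7% of the 60 pairs were called. The 5 added were RPS9, RPS18, RPS22, RPS29 and RPS30. In rpn5-ts the block called the same 4 RPS pairs, where 20% of the 60 pairs were called. Without the library labelled rpn5-ts replicate 1 and with no block, 3 RPS pairs were called in pup2-ts (10% of all pairs), RPS1 and RPS6 among them, and 4 in rpn5-ts (15%), among them RPS1, RPS6 and RPS28. Within replicates 1 and 2 no RPS pair was called in either mutant (0% and 1.67% of all pairs), and within replicates 3 and 4 there were 15 in pup2-ts (60%) and 12 in rpn5-ts (53.3%). With the replicate set as a covariate there were 12 (46.7%) and 5 (25%). Leaving out the library labelled rpn5-ts replicate 1 gave 9 (36.7%) and 2 (10%) with the block and 10 (41.7%) and 5 (21.7%) with the covariate.

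The lesser copies of the RPS9, RPS14, RPS22 and RPS28 pairs took a larger share of their pair in replicates 3 and 4 of the mutants than in those of WT. Within replicates 3 and 4, limma called all 4 log2 ratios of A to B in both mutants, where it called 60% and 53.3% of all pairs, and these 4 pairs were chosen with earlier results known. The differences in pup2-ts were 1.28 for RPS9, -0.81 for RPS14, -1.21 for RPS22 and -0.57 for RPS28. In rpn5-ts they were 0.70, -0.74, -1.03 and -0.59. With all libraries none of the 4 pairs was called. In RPS9, whose intron-bearing copies encode a protein of the subunit body, RPS9A made up 9.46%, 8.19%, 4.44% and 5.68% of the counts of the pair in WT. It made up 9.48%, 9.39%, 11.4% and 11.3% in pup2-ts and 8.85%, 9.22%, 7.65% and 8.15% in rpn5-ts. WT replicates 3 and 4 were the lowest of the 12 libraries and pup2-ts replicates 3 and 4 the highest, and the groups overlapped. The log2 ratio of A to B was higher by 0.69 ± 0.21 in pup2-ts (SE, adjusted p = 0.0553, limma, and exact permutation p = 0.0571) and by 0.37 in rpn5-ts (adjusted p = 0.286). The RPS9 difference in pup2-ts was larger in replicates 3 and 4 by 1.17 (interaction, adjusted p = 0.0020, limma), where 10% of the 60 pairs were called. For rpn5-ts limma called no interaction in any pair (0%). Without the library labelled rpn5-ts replicate 1 it called RPS9, RPS14 and RPS22 for pup2-ts (10%) and RPS14 and RPS22 for rpn5-ts (3.33%).

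RPS14B, whose splicing is known to be inhibited by its own product Rps14, made up 7.84%, 6.76%, 7.19% and 7.29% of its pair in WT. It made up 6.83%, 6.53%, 11.97% and 12.1% in pup2-ts and 6.25%, 8.09%, 11.2% and 11.9% in rpn5-ts. Replicates 3 and 4 of both mutants were above all other libraries, and replicates 1 and 2 of the mutants overlapped WT. Over all libraries the log2 ratio of A to B differed by -0.34 in pup2-ts and -0.35 in rpn5-ts, neither called, and the interaction for pup2-ts was -0.95 (adjusted p = 0.0047, limma). RPS14B itself stood at 121, 156, 170 and 174 CPM in WT, at 125, 141, 196 and 217 CPM in pup2-ts and at 137, 143, 193 and 193 CPM in rpn5-ts.

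RPS22B made up 16.5%, 11.95%, 16.0% and 13.2% of its pair in WT. It made up 16.9%, 16.3%, 27.7% and 28.7% in pup2-ts and 17.4%, 12.2%, 26.1% and 25.4% in rpn5-ts. Replicates 3 and 4 of both mutants were again above all other libraries, and the groups overlapped through replicates 1 and 2. The log2 ratio of A to B differed by -0.74 in pup2-ts (adjusted p = 0.134, limma) and by -0.54 in rpn5-ts (adjusted p = 0.2998). RPS28B, whose mRNA is known to be destabilised by its own product through Edc3, made up 18.7% to 24.4% of its pair in WT, 23.4% to 27.4% in pup2-ts and 23.7% to 27.0% in rpn5-ts. Those ranges overlap, and the log2 ratio of A to B differed by -0.37 and -0.38, neither called. A gene on the same strand, YLR263W, overlaps the listed interval of RPS28B. Other features on the same strand overlap the intervals of RPS9A, RPS14B and RPS22B, and their effect on these shares was not tested.

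**Figure D5:**
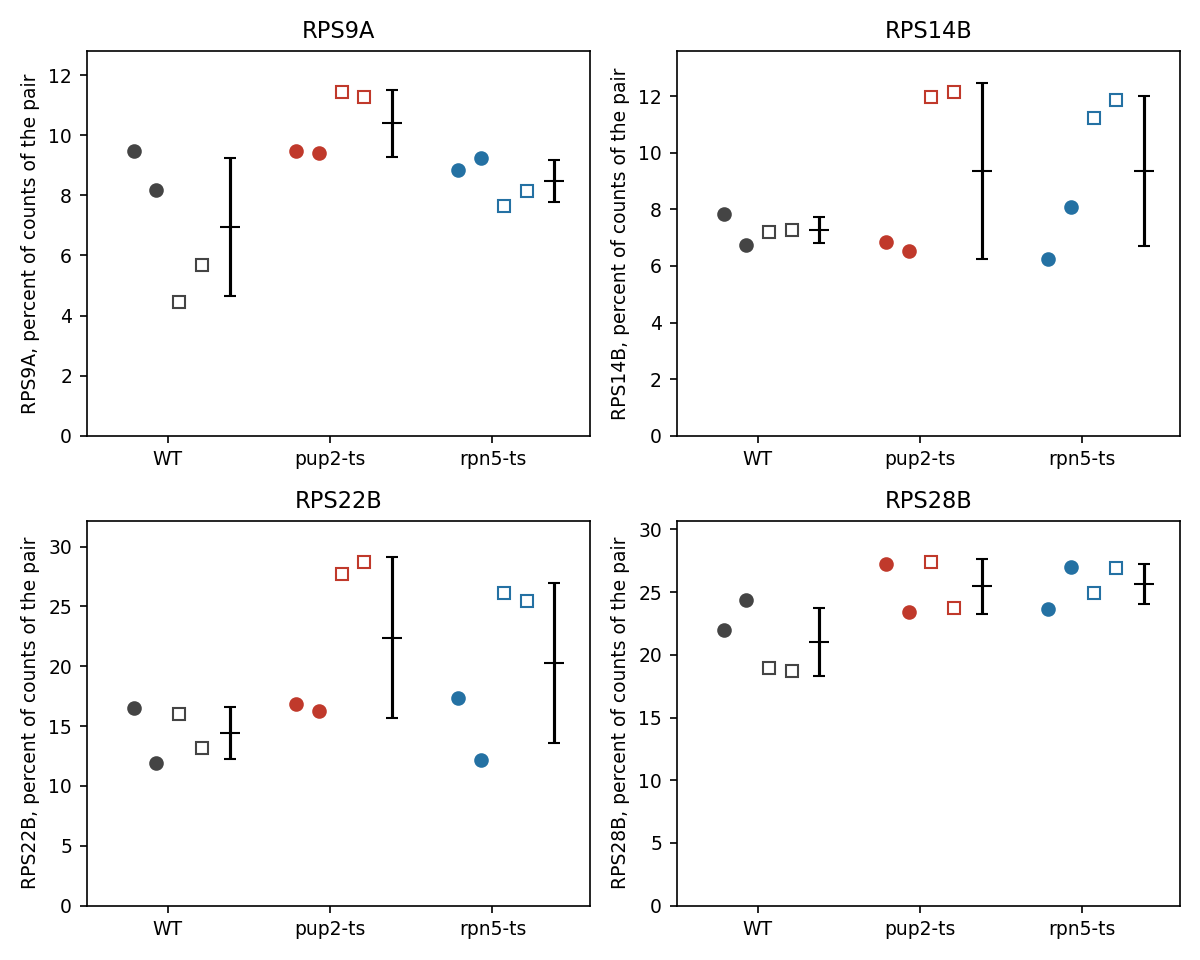
Share of the lesser copy in the counts of its pair for RPS9A, RPS14B, RPS22B and RPS28B, in percent, 1 point per library, with filled circles for replicates 1 and 2, open squares for replicates 3 and 4, and black bars for the mean and SD of 4 libraries. The open squares of pup2-ts stand at 11.3% and 11.4% for RPS9A, 11.97% and 12.1% for RPS14B and 27.7% and 28.7% for RPS22B, above all WT libraries.

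Between the mutants, edgeR called 0 of 56 RPS genes, with 0 at an unadjusted p under 0.05, where 0.036% of all genes were called. DESeq2 and limma-voom also called 0 members. Within replicates 3 and 4 alone edgeR called 10 members, all lower in rpn5-ts, where 34.1% of all genes were called (among them RPS1A, RPS3, RPS6A, RPS6B, RPS7A, RPS9A, RPS13, RPS16A and RPS23A). The median log2 fold change of rpn5-ts against pup2-ts was -0.09. It was -0.25 once the library labelled rpn5-ts replicate 1 was left out. limma called 0 of 24 RPS pairs, where 0% of all pairs were called, and 2 (RPS9 among them) within replicates 3 and 4 alone, where 10% were. The exact permutation test gave an unadjusted p = 0.0286 for each of 4 RPS pairs that did not overlap between the mutants, where 10% of all pairs did not. Of these, RPS1, RPS9 and RPS30 stood toward copy B in rpn5-ts relative to pup2-ts, by -0.11, -0.32 and -0.20 on the log2 scale. Their adjusted p was 0.991 each in limma.

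Other genes that supply or act on 40S proteins were read from the same fit. Of the 4 ubiquitin genes, UBI4, which encodes a chain of ubiquitin units, rose. UBI4 stood at 415, 233, 154 and 152 CPM in WT, at 641, 659, 939 and 912 CPM in pup2-ts and at 586, 907, 871 and 839 CPM in rpn5-ts. All mutant libraries were above all WT libraries, with log2 fold changes of 1.72 (adjusted p = 0.0035, edgeR) and 1.75 (adjusted p = 0.0038). The UBI4 difference in pup2-ts was larger in replicates 3 and 4 by 1.59 (interaction, adjusted p = 0.0253, edgeR), where 9.41% of all genes were called. No ubiquitin gene was called for the rpn5-ts interaction, where 1.67% of all genes were. RPS31, RPL40A and RPL40B, which encode ubiquitin fused to a ribosomal protein, were not called.

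MAG2, whose product ubiquitinates Rps3, rose by 0.44 on the log2 scale in pup2-ts (adjusted p = 0.0242, edgeR) and by 0.44 in rpn5-ts (adjusted p = 0.0257), with no overlap between the groups. HEL2, whose product ubiquitinates Rps20, had log2 fold changes of -0.24 (adjusted p = 0.153) and -0.30 (adjusted p = 0.0799), and with the block edgeR called it lower in both (-0.25, adjusted p = 0.0177, and -0.31, adjusted p = 0.00624). Of 9 regulators of ribosomal protein genes, 0 were called in pup2-ts and 1 in rpn5-ts, RAP1, which was lower (-0.31, adjusted p = 0.0436). With the block, which called 38.5% of all genes in pup2-ts and 40.6% in rpn5-ts, 1 and 4 of the 9 were called. Of 13 initiation factors tested, TIF5, which encodes eIF5, was higher in pup2-ts (0.31, adjusted p = 0.0320), and 0 were called in rpn5-ts, and the block called 3 and 4 of the 13. None of 17 late 40S assembly factors and chaperones was called in either comparison, with 0 and 1 at an unadjusted p under 0.05, and the block called 5 of the 17 in pup2-ts and 10 in rpn5-ts, beside the same 38.5% and 40.6% of all genes. ASC1, the small subunit protein that lacks an RPS name, had log2 fold changes of -0.09 (adjusted p = 0.869) and -0.24 (adjusted p = 0.606).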

How the data were processed

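RNA-seq libraries of WT, pup2-ts and rpn5-ts yeast were analysed from raw read counts per feature, deposited by the authors in a single table of 12768 features. Per the submitters' processing notes, reads were aligned with STAR 2.5.2b and counted with featureCounts of Subread 1.5.1 on sacCer3. The treatment of reads with several genomic positions and of strand is not given in the sources used here. Names came from the RefSeq R64 table, which matched 5585 of 6021 protein-coding genes. These held 86.4% of all counts and served as the library size. Their depth was 18501508 to 60599134 counts a library, and the intervals and SDs given rest on 4 libraries a group.

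edgeR 4.0.16 (R 4.3.3) with TMM factors and its own low-count filter tested 5560 genes in a single robust quasi-likelihood fit of 12 libraries, two-sided, at an adjusted p of 0.05 (Benjamini-Hochberg). limma 3.58.1 tested the log2 ratio of A to B counts, with 0.5 counts added, over 60 pairs with a mean of at least 10 CPM in both genes. Exact permutation tests used single pairs, 4 libraries against 4. The edgeR group comparison and the limma pair test were run on simulated data first, with known changes in pup2-ts. The simulated gene means and ratios held no difference between the replicate sets, and the other fits and tests were not checked this way. Figures used Python 3.11.15 and matplotlib 3.10.9.

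Replicate numbers are shared across groups. The 12 correlations of the deviations of same-numbered libraries from their group means were 0.138 to 0.780, all above 0.1, so the numbers were taken to pair the libraries, from the data and not from a label that says so. Only 6 of 12 libraries lay closest to their own number. No replicate pair was a copy (chi-square per degree of freedom of 7.30 to 746.5). Beyond the words biological replicates, nothing says whether libraries came from separate cultures, so p-values measure the spread between these samples.

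The members and gene lists were chosen with earlier results of these data known. Genes named are those called, the 4 highest and 4 lowest fold changes against WT, genes without a paralog, pairs with a called ratio, the 3 most and 3 least equal pairs, the RPS9, RPS14, RPS22 and RPS28 pairs, and up to 4 called genes of each other list. A few members that meet this rule are not reported here by name, and counts include them. Alternatives were DESeq2 1.42.0, limma-voom, other scaling factors, no filter, 5 added counts, a replicate block, the replicate set as a covariate, each replicate set alone, the 8 compared libraries alone and each library left out. Leaving out the library labelled rpn5-ts replicate 1 together with the block or the covariate was added after the data were seen.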

Additional observations from a re-analysis of the deposited data

Results flagged for a closer look

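Single libraries stood far from the other 3 of their group in 12 of 111 groups of values looked at, beside the 5% that chance gives, and 2 of the 12 were in the library labelled rpn5-ts replicate 1. WT replicate 1 was low, in TMM-scaled CPM, for RPS2 (3255), RPS13 (1399) and RPS14A (1420), and its log2 ratio of RPS16A to RPS16B was high at 0.30. The percent of gene counts in RPS genes was not low in that library (8.35%). WT replicate 2 was high for RPS10A (1760 CPM), RPS20 (4576), RPS28B (327) and RPS29A (619.7), and for the RPS share of gene counts (10.5%). The library labelled rpn5-ts replicate 1 was high for RPS0B (2317 CPM) and RPS2 (4531). rpn5-ts replicate 2 was low for RPS22B (171 CPM).

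The difference between pup2-ts and WT in the log2 ratio of A to B changed between replicates 1 and 2 and replicates 3 and 4 in 3 of 24 RPS pairs, beside 10% of all pairs, by a limma interaction test adjusted over 60 pairs. It was larger in replicates 3 and 4 by 1.17 in RPS9 (adjusted p = 0.0020) and by 0.29 in RPS23 (adjusted p = 0.0449), and lower by 0.95 in RPS14 (interaction -0.95, adjusted p = 0.0047). RPS9, RPS14 and RPS22 were called, and RPS23 was not, without the library labelled rpn5-ts replicate 1. In RPS23, whose product lies at the decoding centre, the log2 ratio was -0.27 to -0.39 in WT, -0.34 and -0.26 in pup2-ts replicates 1 and 2, and 0.00 and -0.08 in pup2-ts replicates 3 and 4.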

How the results depend on the processing

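With replicates 1 and 2 alone the RPS medians against WT were above 0. Of the RPS genes called with replicates 3 and 4 alone, 42 of 56 in pup2-ts and 27 of 54 in rpn5-ts had the other sign there, as did 2 of 15 RPS pairs in pup2-ts and 4 of 12 in rpn5-ts, RPS14 (-0.81 and 0.13 in pup2-ts) and RPS21 (-0.17 and 0.19 in rpn5-ts) among them. With other scaling factors, no filter, limma-voom or 5 added counts every RPS count and median below kept its side, with medians against WT of -0.16 to -0.17 in pup2-ts and -0.24 to -0.26 in rpn5-ts; the cause of the changes below was not tested. With DESeq2, 1 RPS gene was called in each comparison with WT, 27 genes between the mutants, and 863 (9 RPS) and 380 genes for the interactions. With the replicate block, 2142 genes were called in pup2-ts, 2256 (3 RPS) in rpn5-ts and 7 between the mutants, with 19 pairs (9 RPS) in pup2-ts. With the replicate set as a covariate these were 2371 (3 RPS), 2474 (7 RPS) and 32 genes, with 28 pairs (12 RPS) and 15 pairs.

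With replicates 1 and 2 alone, 1 gene was called between the mutants, 0 pairs (0 RPS) in pup2-ts and 1 pair (0 RPS) in rpn5-ts. With replicates 3 and 4 alone, 3651 (56 RPS), 3531 (54 RPS) and 1896 (10 RPS) genes were called, with 36 (15 RPS), 32 (12 RPS) and 6 (2 RPS) pairs. With the 8 compared libraries alone, 1 gene was called between the mutants, and 4 (2 RPS) and 3 (1 RPS) pairs against WT. Without the library labelled rpn5-ts replicate 1, the block called 2297 (2 RPS), 2306 (22 RPS) and 371 genes, with 22 pairs (9 RPS) in pup2-ts and 2 RPS pairs in rpn5-ts. The covariate then called 2517 (6 RPS), 2565 (21 RPS) and 627 genes, with 25 pairs (10 RPS) in pup2-ts and 13 in rpn5-ts.

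With each library left out in turn, 528 to 872 genes (0 to 2 RPS) were called in pup2-ts, 446 to 938 (0 to 3 RPS) in rpn5-ts and 2 to 46 (0 RPS) between the mutants. The lowest counts were without pup2-ts replicates 3 and 4 (528 each) and without WT replicate 4 (489) and rpn5-ts replicates 2 (475), 3 (446) and 4 (472), and the highest between the mutants was without the library labelled rpn5-ts replicate 1. RPS medians ran from -0.26 to -0.06, from -0.39 to -0.17 and, between the mutants, from -0.25 to 0.02. Pairs ran from 4 to 14 (2 to 6 RPS) in pup2-ts, from 3 to 12 (1 to 4 RPS) in rpn5-ts and stayed at 0 between the mutants. Without WT replicate 1, edgeR called RPS2 and RPS15 (-0.43, adjusted p = 0.0416) in pup2-ts and RPS2 (-0.52), RPS9B (-0.50) and RPS18A (-0.44) in rpn5-ts. Without the library labelled rpn5-ts replicate 1 it called RPS26B (-0.44, adjusted p = 0.0346) in rpn5-ts, and the interactions held 925 (1 RPS) and 97 (0 RPS) genes. All RPS genes passed the filter on low counts.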

Other observations

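Genes of the mating type were read as a check of the labelled MATa cells, and some of them changed in the mutants. Of 7 markers of a cells, edgeR called 4 lower in pup2-ts, where 6.65% of all genes were called lower, and 3 lower in rpn5-ts, where 5.4% were. The median log2 fold change of the 7 was -0.72 and -0.61. With the replicate block, edgeR called 7 of the 7 lower in pup2-ts and 6 in rpn5-ts, where it called 38.5% and 40.6% of all genes. MFA1, which encodes the a-factor pheromone, stood at 98.6, 121.2, 95.6 and 76.7 CPM in WT, at 51.2, 59.0, 31.3 and 40.5 CPM in pup2-ts and at 38.7, 26.6, 31.4 and 28.5 CPM in rpn5-ts. All mutant libraries were below all WT libraries, with log2 fold changes of -1.11 (adjusted p = 0.0038, edgeR) and -1.65 (adjusted p = 0.0004). Of 4 markers of alpha cells, edgeR called SAG1, an agglutinin, lower in pup2-ts (-0.46, adjusted p = 0.0176) and STE3, the a-factor receptor, higher in rpn5-ts (1.01, adjusted p = 0.0222), where 15.4% and 13.7% of all genes were called. STE3 stood at 4.89 to 10.04 CPM in WT and at 12.6 to 17.8 CPM in rpn5-ts. The median log2 fold change of the 4 was -0.28 in pup2-ts and 0.83 in rpn5-ts, with ranges of -1.23 to 0.75 and -0.22 to 1.02. MF(ALPHA)1 and MF(ALPHA)2 were near the floor, so these medians rest in part on very low counts. With the replicate block, edgeR called 2 of the 4 in pup2-ts and 1 in rpn5-ts, beside the same 38.5% and 40.6% of all genes. The marker allele of both mutants carries an MFA1 promoter, and its part in the MFA1 values was not tested.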
